A study of Homo sapiens with 8 samples.

Results

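XPNPEP1 and BCAR3 are 2 genes near which distal sites of open chromatin were no longer listed after TGFβ1 treatment of MCF10A cells. They were selected on the measured values: each had the nearest transcription start site (TSS) to 4 distal solvent peaks without a counterpart at 72 h, so these losses are a description and support nothing. Of the genes nearest to a distal peak, 1 (TGFBR3) had 5 such losses, 4 had 4 and 13 had 3. Besides XPNPEP1 and BCAR3, the genes with 4 losses were PVT1 and the unnamed ENSG00000234261. The peak lists of all conditions were merged wherever peaks shared at least 1 bp, which gave 126658 regions. Kept here were the 101 that overlap either gene body or the 150 kb on each side of it, 20 around XPNPEP1 and 81 around BCAR3.

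Open chromatin was mapped with ATAC-seq, an assay whose transposase inserts adapters into DNA that nucleosomes leave accessible. The cells were MCF10A of genotype WT, an established, immortalised line of human mammary epithelial cells that passes through an epithelial-mesenchymal transition under TGFβ1. There were 4 groups of 2 replicates each, solvent (BSA in PBS) and 5 ng/ml of TGFβ1 for 6, 24 or 72 h, and the solvent samples are labelled as time 0 while a legend of the study gives the control 72 h of solvent. Each group is represented by 1 peak list called on both replicates together, so no difference given here has a replicate check and none was tested. The solvent list held 86209 peaks and the TGFβ1 lists 107656, 118433 and 116720, and the usable depth left behind each list after filtering is not given in the sources used here, although the study names 1 common target for all samples. The epithelial identity was checked by peaks within 3 kb of a TSS. KRT5, KRT14, KRT17, TP63, ITGB4 and LAMB3, which mark basal mammary cells, and EPCAM and CDH1 had one in every list, whereas CD3E, HBB and ALB had none. PTPRC, a leukocyte gene, and PECAM1, an endothelial gene, had such a peak in every list, and the part of these peaks in the results was not tested.

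Distal elements such as enhancers are short stretches of open chromatin that bind transcription factors and act on promoters over a distance. The nearest gene is not always the one they act on. XPNPEP1 encodes the cytosolic aminopeptidase P, which removes the first amino acid of peptides that carry proline next to it, such as bradykinin. BCAR3 encodes an adaptor protein that binds the scaffold BCAR1 (p130Cas), takes part in cell adhesion and migration, and was named for the resistance to anti-estrogens that it confers on breast cancer cells.

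Of the 7 regions lost at 72 h in both windows, the sequences of all 3 around XPNPEP1 and of 2 around BCAR3 are shown, namely the one with motif matches and the one of highest solvent signal. For comparison follow the gained BCAR3 region of largest signal at 72 h and the XPNPEP1 window region of highest ratio to solvent. The latter was chosen after its values were seen. The gained XPNPEP1 region of largest signal at 72 h held no match to any of the motif letters and is not shown. Each is the summit base with 100 bp on either side, read on the plus strand of GRCh38 (hg38), with capitals marking matches to the motif letters given further down.
XPNPEP1 intron 3, no peak from 24 h, chr10:109900034-109900234: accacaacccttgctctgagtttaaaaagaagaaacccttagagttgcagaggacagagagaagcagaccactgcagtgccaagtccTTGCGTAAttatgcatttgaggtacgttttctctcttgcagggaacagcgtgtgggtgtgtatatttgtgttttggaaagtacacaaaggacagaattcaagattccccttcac
XPNPEP1 intron 3, no peak at 72 h, chr10:109903275-109903475: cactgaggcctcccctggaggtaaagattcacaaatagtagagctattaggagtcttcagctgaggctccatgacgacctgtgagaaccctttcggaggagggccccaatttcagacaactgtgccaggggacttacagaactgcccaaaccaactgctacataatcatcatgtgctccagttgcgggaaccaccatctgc
Upstream of XPNPEP1, no peak from 24 h, chr10:109935084-109935284: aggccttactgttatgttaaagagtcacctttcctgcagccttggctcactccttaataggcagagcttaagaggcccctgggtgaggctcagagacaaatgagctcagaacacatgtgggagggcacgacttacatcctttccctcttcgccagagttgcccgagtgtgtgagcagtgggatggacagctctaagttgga
BCAR3 intron 3, no peak from 24 h, chr1:93620962-93621162: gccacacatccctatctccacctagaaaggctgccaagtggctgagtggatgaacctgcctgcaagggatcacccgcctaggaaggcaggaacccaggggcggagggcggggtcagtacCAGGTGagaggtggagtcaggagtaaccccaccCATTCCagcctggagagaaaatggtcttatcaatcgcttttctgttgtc
BCAR3 long isoform intron 2, no peak from 6 h, chr1:93771883-93772083: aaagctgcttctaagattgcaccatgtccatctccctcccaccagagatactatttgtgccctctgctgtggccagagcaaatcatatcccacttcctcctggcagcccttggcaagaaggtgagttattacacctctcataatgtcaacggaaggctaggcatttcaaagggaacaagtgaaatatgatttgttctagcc
BCAR3 long isoform intron 2, peak from 6 h on, chr1:93822758-93822958: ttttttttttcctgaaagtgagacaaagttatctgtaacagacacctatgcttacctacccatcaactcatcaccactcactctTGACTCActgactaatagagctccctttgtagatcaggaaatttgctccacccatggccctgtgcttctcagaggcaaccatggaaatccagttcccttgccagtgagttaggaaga
ADD3-AS1 intron 3, highest ratio of the XPNPEP1 window, chr10:109987493-109987693: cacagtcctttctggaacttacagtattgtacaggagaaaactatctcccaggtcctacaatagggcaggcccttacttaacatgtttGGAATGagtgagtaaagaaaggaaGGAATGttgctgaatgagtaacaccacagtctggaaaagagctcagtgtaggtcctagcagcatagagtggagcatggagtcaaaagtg
A match to the C/EBP letters began 13 bp before the summit of the first sequence. In the BCAR3 intron 3 sequence an E-box match began 19 bp and a TEAD match 52 bp after the summit. The gained sequence held an AP-1 match that began 16 bp before the summit, and the last sequence held 2 TEAD matches, beginning 12 bp before and 12 bp after it.

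Signal is given as the AUC, the area under the significance curve of the authors' peak caller, summed over the peaks of a region. Peaks below an AUC of 200 are not listed, so a region without a peak may still have been open below that limit, and no ratio is given against it. For ratios, the TGFβ1 lists were divided by 1.36, 1.30 and 1.19 at 6, 24 and 72 h, the median fold difference to solvent at regions within 3 kb of a TSS. Log2 ratios below are scaled in this way, and AUC values are as deposited. A region was called lost when it had a solvent peak and none in the TGFβ1 list, gained in the opposite case, and shared when it had both. It was proximal within 3 kb of any TSS or when touching a first exon or a 5′ UTR, and otherwise distal.

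XPNPEP1 (ENSG00000108039.18) lies on the minus strand of chr10:109864766-109923553. In solvent 17 of the 20 regions around it had a peak, and at 72 h 3 were lost and 3 gained. The lost regions were all distal and flanked the promoter, 2 in intron 3 and 1 upstream of the gene. None of the 17 was lost at 6 h, while 2 were lost by 24 h. Over all regions with a solvent peak, losses at the successive times came to 0.714%, 1.86% and 3.44%, and to 3.69% of distal ones at 72 h. Among 15118 protein-coding genes with at least 10 solvent regions within the same distance, the share lost at 72 h was higher than that of XPNPEP1 (17.6%) for 156, a rank that follows from how the gene was chosen.

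The intron 3 region at chr10:109900040-109900384, whose C/EBP match is shown above, had an AUC of 293 in solvent and 205 at 6 h, and no peak at 24 or 72 h. Its neighbor in the same intron, chr10:109902864-109903542, had 506 in solvent, then 734 and 366 at 6 and 24 h, before no peak was listed at 72 h. This region joined 2 solvent peaks of 233 and 273, so that the 4 lost peaks fell in 3 regions. The upstream region, chr10:109935047-109935388, had 351 in solvent, 307 at 6 h and none later. The first and the third region were thus at their highest in solvent, while the second was highest at 6 h on the deposited scale and had a log2 ratio of 0.09 there. At 24 h its log2 ratio was -0.85.

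**Figure D1:**
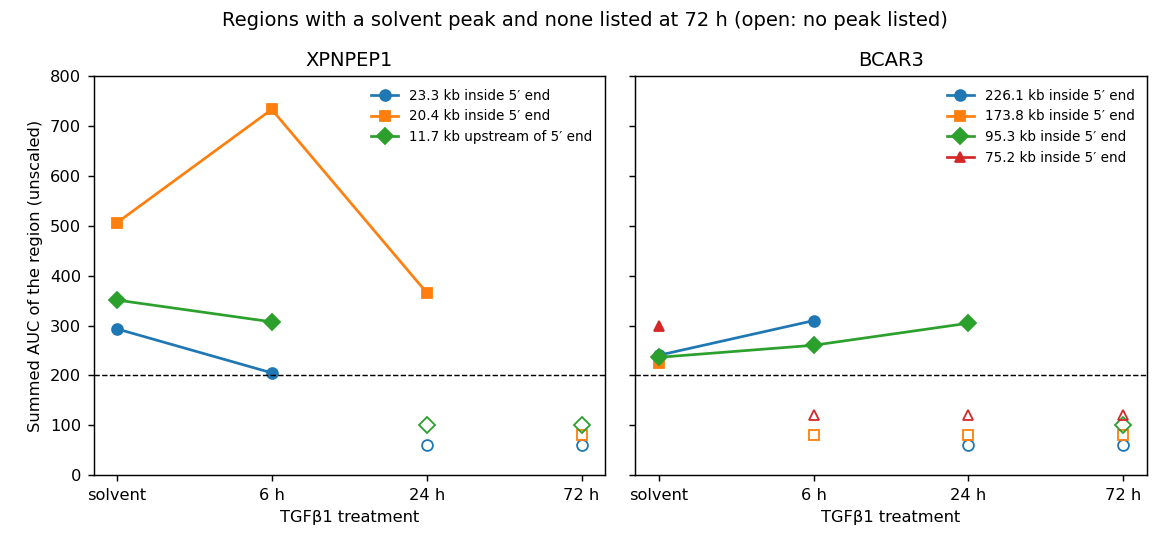
Summed AUC, as deposited, of the 3 XPNPEP1 regions (left) and 4 BCAR3 regions (right) with a solvent peak and none at 72 h. The dashed line is the listing limit of 200, and open symbols mark lists without a peak, drawn below the line without a value. All 7 lie between 226 and 506 in solvent, and 1 exceeds 400.

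The number of distal peaks whose nearest TSS was that of XPNPEP1 was 4 in solvent and then 3, 1 and 0 at the successive times under TGFβ1. This count depended on the annotation. When only the TSSs of protein-coding genes were considered for the nearest gene, it was 14 before and 21, 24 and 30 after TGFβ1, the opposite direction, because peaks nearest to pseudogenes and non-coding RNAs then fell to XPNPEP1. Of these peaks only 6 in solvent and 5, 3 and 4 under TGFβ1 lay within the window, so the increase was located beyond it. Only 8 of the 20 regions were distal, and XPNPEP1 has 29 annotated transcripts that start at many positions along the gene.

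Further regions of the XPNPEP1 window had a higher signal under TGFβ1. The highest log2 ratio belonged to chr10:109987466-109987728 in intron 3 of ADD3-AS1, the antisense RNA of ADD3, whose AUC was 280 in solvent and 816, 1228 and 1221 under TGFβ1. Its log2 ratios were 1.10, 1.75 and 1.88. The region lies 20.3 kb from the start of the main ADD3 transcript and 64.0 kb from that of XPNPEP1. ADD3 encodes gamma-adducin, a protein of the membrane skeleton that joins spectrin to actin. The intergenic chr10:109823237-109823542, 100.0 kb downstream of the XPNPEP1 start, had 439 in solvent and 1101, 1511 and 1319 under TGFβ1, with log2 ratios of 0.88, 1.40 and 1.34. Within XPNPEP1 intron 3, chr10:109895180-109895737 had 362 in solvent and 927, 874 and 793 under TGFβ1, a log2 ratio of 0.88 at 72 h. Its peak was 193 bp wide in solvent and 465 bp at 72 h, and per base its log2 ratio was -0.31, while those of the other two were 1.63 and 1.25.

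The gained region of largest signal in this window lay in intron 5 of XPNPEP1, at chr10:109889927-109890224. No peak was listed in solvent, and its AUC was 782, 1173 and 1091 at 6, 24 and 72 h. The other 2 gained regions were intergenic, present only at 72 h, and had an AUC of 297 and 204, close to the limit. Gained regions made up 1 of 18 at 6 h and at 24 h and 3 of 20 at 72 h, against 22.9%, 29.8% and 29.3% of all regions with a peak in either list of the pair.

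Both promoters in the window had a peak in every list and stayed within 2-fold of solvent. The region at the XPNPEP1 start (chr10:109922643-109923736) had an AUC of 2061 in solvent and 2657, 2599 and 1940 under TGFβ1, with log2 ratios of -0.08, -0.05 and -0.33. The ADD3 promoter (chr10:110006907-110009046) had 3960 in solvent and 5646, 4980 and 5078, with log2 ratios of 0.07, -0.05 and 0.11. The lowest log2 ratios at 72 h were found at chr10:110005745-110006146 in an exon of ADD3-AS1 (-0.39), at the XPNPEP1 promoter, and at chr10:109894443-109895027 in XPNPEP1 intron 3 (-0.33, but 0.20 per base). The XPNPEP1 promoter thus had the second lowest ratio of 14 shared regions, and no shared region reached a 2-fold decrease. Over all shared regions 1.23% did so and 10.5% had a 2-fold or greater increase, as did 2 of 14 here. The median log2 ratio at 72 h was 0.08 here, 0.15 over all shared regions and 0.00 over the proximal ones. Lost regions had held 7.02% of the solvent AUC of the window, gained regions held 7.28% of its AUC at 72 h, and the scaled total was 0.17 higher on the log2 scale.

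**Figure D2:**
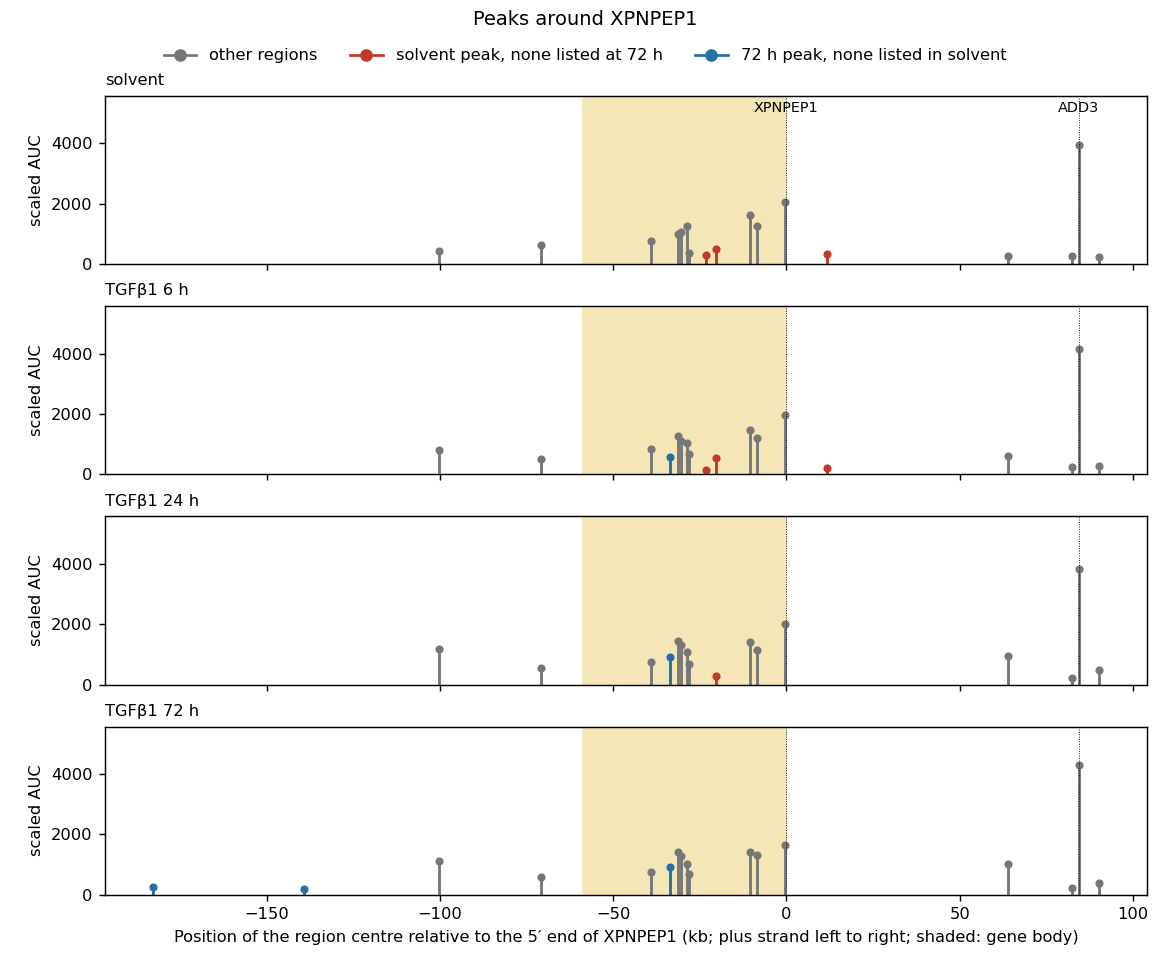
Scaled AUC of each region around XPNPEP1 (vertical axis) by the position of its center relative to the 5′ end of the gene in kb, in 1 panel for each list. Dotted lines mark the starts of XPNPEP1 and ADD3. The 3 lost regions (red) are in or near the gene, and the region of highest ratio lies toward ADD3.

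As candidate targets, the protein-coding genes with a TSS in the window are XPNPEP1 and ADD3, which start 84.5 kb apart on opposite strands. The 3 lost regions lie 23.1, 20.0 and 11.5 kb from the start of the main XPNPEP1 transcript and 107.6, 104.4 and 72.6 kb from that of ADD3. The nearest start of any XPNPEP1 transcript is 6547, 4276 and 11494 bp away. The main transcript of the next protein-coding gene, the MYC antagonist MXI1, started 272.2 to 307.2 kb away. No expression or contact data were analyzed here, so which gene any region acts on was not tested.

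BCAR3 (ENSG00000137936.18) spans chr1:93561741-93847150 on the minus strand and was surrounded by many more sites. Of 81 regions, 56 had a solvent peak, 4 of these were lost at 72 h, and 20 others were gained. These counts moved with the settings, to 10 lost and 11 gained for lists of equal length and to 10 lost when peaks had to share at least 50% of both. The 4 lost regions were all distal and within the gene, and all were near the listing limit in solvent. Losses numbered 3, 3 and 4 of 56 at the successive times. For the share lost at 72 h (7.14%), 2590 of the 15118 gene windows were higher, whereas only 13 had more solvent regions than BCAR3. Longer genes have longer windows, and the number of regions was not corrected for window length.

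The AUC of the lost intron 3 region, chr1:93620897-93621138, was 240 in solvent and 310 at 6 h, with no peak later. In intron 2, chr1:93673226-93673428 had 226 in solvent and no peak in any TGFβ1 list. The other 2 lie before the start of the main transcript, in intron 2 of the long isoform ENST00000370244.5. Of these, chr1:93771852-93772142 had 300 in solvent and no peak under TGFβ1, and chr1:93751731-93751968 had 236 in solvent, then 260 and 305, and no peak at 72 h. The latter and the intron 3 region were thus not at their highest in solvent as deposited, although their log2 ratios at 6 h were -0.30 and -0.07. Another region, chr1:93694899-93695146, was lost at 6 h (203 in solvent) and listed again with 299 at 24 h and 483 at 72 h, a log2 ratio of 1.00.

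The solvent signal of the lost regions was low. Those of BCAR3 exceeded 4.05% to 14.3% of all solvent regions and those of XPNPEP1 13.5% to 34.6%. Over all distal solvent regions, the share lost at 72 h was 12.6% for an AUC of 200 to 300, 6.1% for 300 to 400, 2.12% for 400 to 800 and 0.225% from 800 on. Around BCAR3, 4 of 14 distal regions of the lowest class were lost and none of 3, 14 and 11 in the higher classes. Around XPNPEP1, 1 of 2, 1 of 1 and 1 of 3 were lost in the first 3 classes, and no distal region was in the highest. With a minimum AUC of 400 for every peak, no XPNPEP1 region and 1 BCAR3 region were lost. That region was not among the 4 lost BCAR3 regions, whose solvent AUC was below 400.

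**Figure D3:**
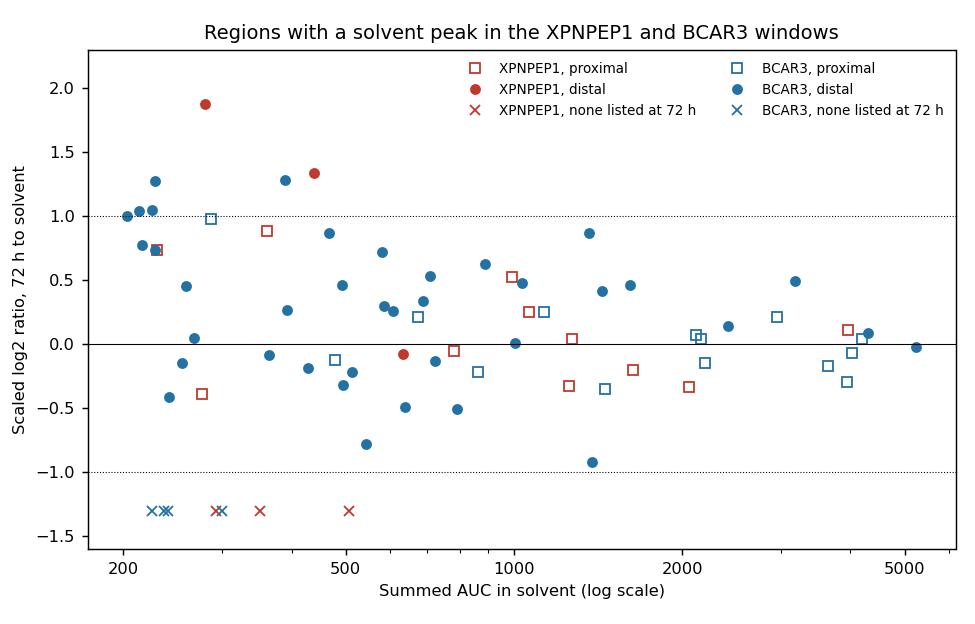
Scaled log2 ratio at 72 h to solvent (vertical axis) against the solvent AUC (log scale) for the regions of both windows with a solvent peak. Filled symbols are distal and open ones proximal, and crosses at the bottom mark regions without a peak at 72 h, which have no ratio. Dotted lines mark a 2-fold difference, exceeded upward by 2 XPNPEP1 and 5 BCAR3 regions and downward by none.

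Around BCAR3 more regions were gained than lost. At the successive times gained regions made up 15 of 71, 21 of 77 and 20 of 76 regions with a peak in either list. These shares of 21.1%, 27.3% and 26.3% were each below the 22.9%, 29.8% and 29.3% given above for all regions. Of the 20 at 72 h, 13 had a peak in all TGFβ1 lists and 2 only at 72 h. The region at chr1:93822680-93823306, whose AP-1 match is shown above, had no solvent peak and an AUC of 770, 1736 and 1527 at 6, 24 and 72 h. At chr1:93703689-93704168 the AUC was 1151, 1346 and 1152, and at chr1:93754208-93754782 it was 642, 878 and 1083. These 3 lie in introns 2 and 3 of the long isoform. At 72 h all 20 spanned 202 to 1527, with a median of 462.

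Some lost regions lay near gained ones. The lost intron 2 region was 749 bp from chr1:93672240-93672476, which had no solvent peak and an AUC of 407, 294 and 496 under TGFβ1. The lost chr1:93751731-93751968 was 2239 bp from the gained chr1:93754208-93754782. The nearest region that was gained or 2-fold higher was 4464 bp away for the lost intron 3 region and 7106 bp away for chr1:93771852-93772142. Around XPNPEP1 these distances were longer, 9815 to 44822 bp. That window held only 3 gained regions and 2 that were 2-fold higher at 72 h, against 20 and 5 around BCAR3. The distances were not corrected for the density of regions.

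Of the 52 regions shared at 72 h, 5 had a 2-fold or greater increase and none a 2-fold decrease, beside the 10.5% and 1.23% of all shared regions. The highest log2 ratio, 1.28, was that of chr1:93519377-93519904 in intron 2 of FNBP1L, whose AUC was 390 in solvent and 822, 901 and 1124 under TGFβ1. FNBP1L encodes an F-BAR protein that links curved membranes to actin assembly. In BCAR3, chr1:93763772-93764745 had 228 in solvent and 308, 715 and 655 (log2 ratio 1.28 at 72 h), and chr1:93756691-93756995 had 225 and 586, 770 and 552 (1.05). The lowest log2 ratios were -0.92 at chr1:93597691-93598129 in intron 3 of the main transcript, -0.78 at chr1:93819050-93819262 and -0.50 at chr1:93814050-93814493. Per base the 3 highest were 0.90, 0.50 and 0.70 and the 3 lowest -0.61, -0.57 and 0.29, the last with the opposite sign. The region of lowest ratio had an AUC of 1381 in solvent and 1402, 1133 and 866 under TGFβ1, and its log2 ratios of -0.42, -0.66 and -0.92 were lower at each later time. It had far more solvent signal than any lost region.

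**Figure D4:**
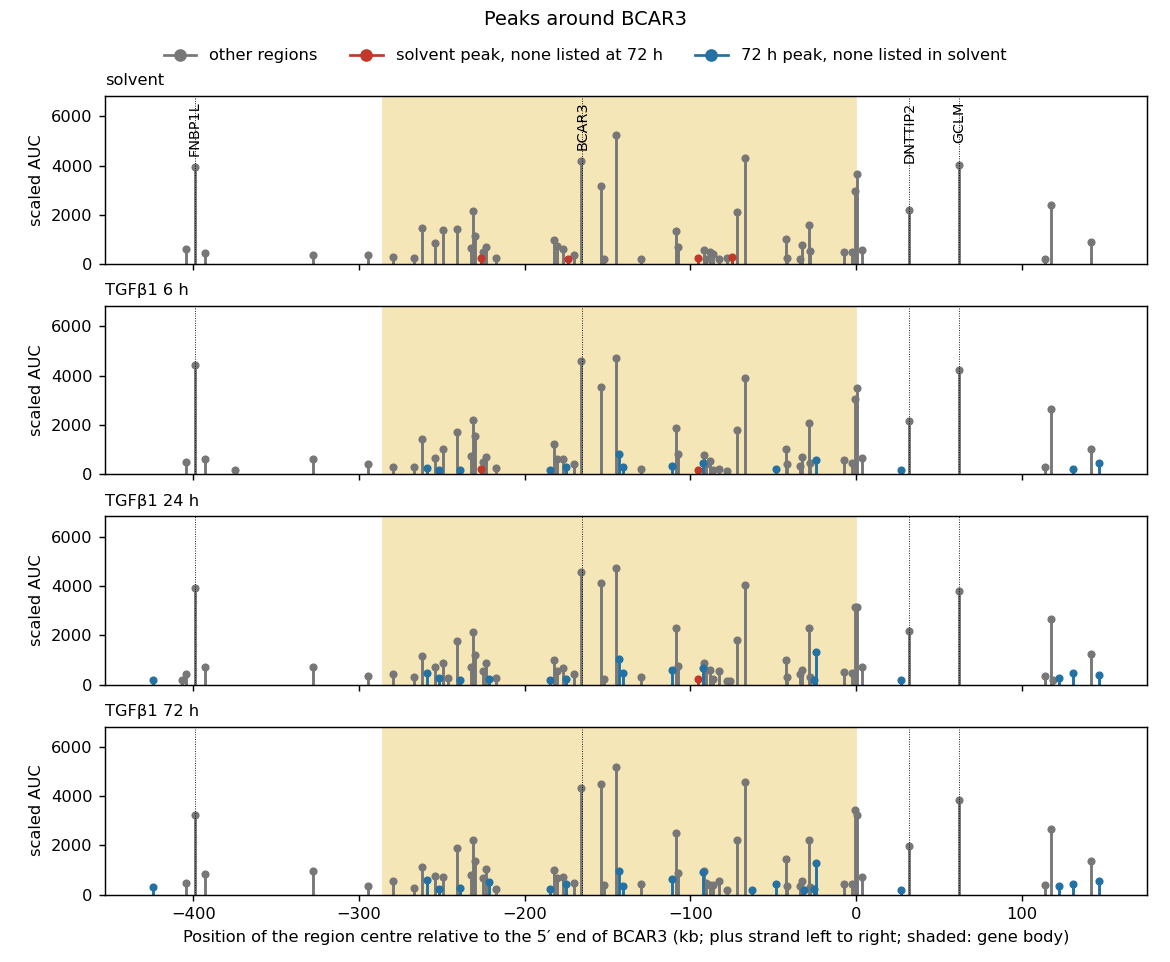
Scaled AUC of each region around BCAR3 by the position of its center relative to the 5′ end of the long isoform in kb, in 1 panel for each list. Dotted lines mark the starts of the main transcripts of the protein-coding genes. The 4 lost regions (red) are among the lowest in solvent, and gained ones (blue) are spread over the gene and both flanks.

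Both main promoters of BCAR3 kept their peaks. The region at the start of the main transcript (chr1:93680141-93682299) had an AUC of 4197 in solvent and 6221, 5961 and 5120 under TGFβ1, with log2 ratios of 0.13, 0.13 and 0.04. At the start of the long isoform (chr1:93846989-93848234) the AUC was 3651 in solvent and 4781, 4084 and 3848, with log2 ratios of -0.05, -0.22 and -0.17. The adjacent region over the start of the microRNA gene MIR760 (chr1:93845559-93846892) had 2954 in solvent and 4137, 4105 and 4073. Its log2 ratios had the opposite sign, 0.04, 0.09 and 0.22. The promoters of the neighbors had log2 ratios at 72 h of -0.29 for FNBP1L, -0.14 for DNTTIP2, which encodes a nucleolar protein, and -0.07 for GCLM, which encodes the modifier subunit of the enzyme that limits glutathione synthesis. All lay below 2-fold in either direction. Distal peaks nearest to BCAR3 numbered 36 in solvent and 38, 41 and 41 under TGFβ1, without a drop despite the 4 losses. The whole lists held 86209 peaks in solvent and 107656, 118433 and 116720 under TGFβ1, and the count was not corrected for this.

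Over the shared regions of the BCAR3 window the median log2 ratio was 0.07, 0.10 and 0.18 at 6, 24 and 72 h, beside 0.06, 0.12 and 0.15 over all shared regions. At 72 h the median was 0.32 for 38 distal and -0.01 for 14 proximal regions, beside 0.27 and 0.00 over all. Lost regions had held 1.50% of the solvent AUC and gained regions held 11.4% of that at 72 h. The scaled total was 0.15, 0.21 and 0.28 higher than in solvent on the log2 scale.

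Candidate targets around BCAR3 are BCAR3 itself, FNBP1L, DNTTIP2, GCLM and the microRNA gene MIR760, whose start lies 318 bp from that of the long isoform. From the 4 lost regions, in the order of their coordinates, the start of the main BCAR3 transcript is 60.7, 8.4, 69.9 and 90.0 kb away. In the same order the nearest start of any BCAR3 transcript is 6800, 7942, 23476 and 3302 bp away. No main transcript of another protein-coding gene starts nearer than 107.1 kb. The gained region at chr1:93822680-93823306 is 140.8 kb from the main BCAR3 start but 22.4 kb from the nearest BCAR3 start and 55.9 kb from DNTTIP2. ABCA4 reaches into the window without a start there.

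Exact letters were searched within 100 bp of every summit on both strands: AP-1 as TGAGTCA, E-box as CACCTG, C/EBP as TTACGCAA, TTATGCAA, TTGCGCAA or TTGTGCAA, SMAD as GTCTAGAC or GTCTGGAC, KLF as GGGTGTGGC, GGGCGTGGC, GGGTGGGGC or GGGCGGGGC, ETS as CCGGAAG, TEAD as GGAATG, RUNX as TGTGGTT and GRHL as AACCGGTT or AACCAGTT. No word holds another motif. None of the 7 lost regions held AP-1, while 11 of the 23 gained ones (47.8%) did, and over all regions 32.3% did. Of all distal regions, AP-1 was found in 8.54% of those lost and 40.9% of those gained at 72 h. E-box, C/EBP and TEAD letters were each found in 1 of the 7 lost regions, beside 18%, 3.12% and 15.9% of all regions. Among all distal regions lost at 72 h, these letters were in 28.8%, 9.76% and 13.5%. SMAD (0.925% of all regions), KLF (5.83%), ETS (2.58%), RUNX (6.45%) and GRHL (0.621%) were in none of the 7. Over the whole width of the regions, 1 lost region, the wider one of XPNPEP1 intron 3, held AP-1 and 2 held the E-box. By that search AP-1 was in 38.4% and the E-box in 36.2% of all regions. Among all distal regions lost at 72 h they were in 11% and 37.2%. Within 100 bp of the summit, TEAD letters were in 7 of the 23 gained regions, RUNX in 3, the E-box in 2 and SMAD in 1. C/EBP, KLF, ETS and GRHL letters were in none of them. Among all distal regions gained at 72 h, TEAD was in 19.3%, RUNX in 9.2%, the E-box in 14% and SMAD in 1.2%. These matches are letters only, and binding was not measured.

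Finally, partners and relatives of BCAR3 and other proline-specific peptidases were taken as lists. Around 13 partners and relatives of BCAR3, among them BCAR1, SRC, CRK and RAC1, 8 of 251 solvent regions (3.19%) were lost at 72 h, beside 3.44% of all. Of the 10 with a promoter region, 3 had a log2 ratio above and 7 below 0, from -0.20 at BCAR1 to 0.21 at NEDD9, a relative of BCAR1. Around 9 other peptidases that act next to proline, 4 of 163 (2.45%) were lost, and 6 promoters with a solvent peak lay between -0.22 (XPNPEP3) and 0.04 (DPP9). In both lists regions were summed over the windows of the genes, so a region within overlapping windows counts in each. For XPNPEP2, DPP4 and FAP, membrane-bound or cell-surface members, no promoter peak was listed in solvent, while all TGFβ1 lists held one, as in 2.43% of 14786 promoters of protein-coding genes. Their AUC at 72 h was 370, 418 and 800.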

How the data were processed

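ATAC-seq was performed on 8 libraries, 2 for each of 4 conditions. Per the study's methods and the submitters' processing notes, the authors trimmed reads (Trimmomatic 0.38), aligned them to GRCh38 (Bowtie2 2.4.5), removed duplicates (Picard), filtered them (SAMtools 1.4.1) and called peaks on both replicates of a condition together with Genrich 0.5. The deposited lists give for each peak a score, the AUC, in which a peak counts from 200 on, a −log10 p at the summit, and the position of the summit. This value grows with depth and with the width of a peak, and the authors did not bring the lists to a common scale. The deposited −log10 q values and the authors' own differential regions were not used. No read totals or values for single replicates were analyzed, so no test, interval or pairing of replicates was possible.

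Coordinates are those of the lists, printed from 1, and fit the lengths of the hg38 chromosomes. Genes were taken from GENCODE 44. Peaks sharing at least 1 bp were merged, AUC was summed per region and list, and lists were scaled by the median log2 ratio to solvent at shared regions within 3 kb of a TSS. Merging, scaling and the count of lost regions were checked on lists simulated from the solvent peaks. The simulated lists kept the solvent coordinates, held no new peaks and had no AUC limit. Gains, peaks with shifted borders and losses at the limit were therefore not checked. The members, gene lists and motifs were chosen with earlier results of these data known. Named regions were all lost ones, the 3 gained ones of largest AUC present in all TGFβ1 lists (1 around XPNPEP1), the 3 highest and 3 lowest ratios in each window, and the promoters of protein-coding genes. Regions chosen otherwise (the long-isoform and MIR760 promoters, the region absent only at 6 h, and the neighbors of lost regions) were added after their values were seen. Alternatives covered other AUC minimums, list lengths, overlaps, window sizes, scalings and TSS sets. Scripts ran in Python with numpy, pandas and pysam.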

Additional observations from a re-analysis of the deposited data

How the results depend on the processing

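No paired analysis was possible because each condition has 1 peak list pooled over replicates, and no replicate could be left out. With a minimum AUC of 400 for every peak, 0 regions were lost at 72 h around XPNPEP1 (main count 3) and 1 around BCAR3 (main count 4). This BCAR3 region was not among the 4 of the main count. With that minimum for changed regions only, 1 and 0 were lost and 1 and 12 gained. With lists of equal length, 10 BCAR3 regions were lost and 11 gained, and 1 XPNPEP1 region was gained. Requiring 50% of both peaks to overlap gave 10 lost BCAR3 regions. With 50 kb on each side 1 XPNPEP1 region was gained, and with 250 kb 6 were. The other counts of lost and gained regions lay within 1.5 times the main ones.

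The median log2 ratio at 72 h was 0.08 around XPNPEP1 and 0.18 around BCAR3. It was 0.32 and 0.42 without scaling, 0.15 and 0.25 with scaling by regions within 1 kb of a protein-coding TSS, and -0.069 and 0.0306 with scaling by all shared regions. From the AUC per base it was -0.0169 and -0.0228, from the largest −log10 p at a summit -0.0046 and 0.0159, with a minimum AUC of 400 it was 0.0183 and 0.16, and with 50 kb -0.0041 and 0.21. With 250 kb it was 0.15 around BCAR3. The sign of both medians therefore depended on the measure.

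Distal peaks nearest to XPNPEP1 (main counts 4, 3, 1 and 0) numbered 14, 21, 24 and 30 by protein-coding TSSs. With proximal as within 1 kb they numbered 6 in solvent and 6, 5 and 3 under TGFβ1. With a minimum AUC of 400 they were 0 in solvent, 1 at 6 h and 0 at 24 h, while those nearest to BCAR3 numbered 19 in solvent and 28, 28 and 32 under TGFβ1, beside 36, 38, 41 and 41 in the main counts.

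Among named regions, the per-base log2 ratio was 0.20 at chr10:109894443-109895027, -0.31 at chr10:109895180-109895737, 0.29 at chr1:93814050-93814493 and -0.0483 at the main BCAR3 promoter. By −log10 p, the ADD3 promoter was at -0.015, the main BCAR3 promoter at -0.0823 and the GCLM promoter at 0.0137. Without scaling, the DNTTIP2 and GCLM promoters were at 0.10 and 0.18. The ratios of the highest named regions kept their sign in each of these settings, except that of chr10:109895180-109895737 per base. The causes were not tested. The usable depth of each list, on which the AUC depends, was not analyzed.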
